A study of Mus musculus with 3 samples.

Results

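C3 was 1 of the 9 clusters into which the study divided the CD8+ T cells of mouse spleen after transplantation, and it held 1795 of 10833 CD8+ cells, in a series of 21204 CD4+ and CD8+ T cells. Its members were the cells that carry number 2 in the deposited cluster column, matched to the name C3 because their numbers in the 3 treatment groups are those of that cluster in the study's plotted values. C3 is one of 3 cycling clusters, with C2 (2494 cells) and C4 (1116 cells), and its given marker is Mki67, a protein of the chromosome surface in dividing cells. All B6D2F1 recipients received an allogeneic graft of B6 bone marrow and B6 T cells, to which a small number of TEa T cells was added, a TCR transgenic line specific for a recipient peptide. They were given saline, or cyclosporine (CSA) at 5 mg/kg or 50 mg/kg, daily from day 0 to day 6. Spleens were collected on day 7, those of 2 mice were pooled, and sorted CD4+ and CD8+ cells were mixed at equal numbers, giving 3 pools marked by antibody hashtags in each group of 6 mice. Each group was 1 droplet capture, so a treatment and its capture cannot be told apart, and every p-value below measures the spread among pools of 1 capture. C3 held 210, 228 and 224 cells in the saline pools, 97, 148 and 179 at 5 mg/kg, and 209, 184 and 316 at 50 mg/kg.

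CSA inhibits calcineurin, the calcium-dependent phosphatase that lets NFAT transcription factors enter the nucleus after the T cell receptor (TCR) is engaged. An activated CD8+ T cell divides many times, and each cycle runs through G1, DNA synthesis in S phase, G2 and mitosis. Genes for DNA replication and for the histones that package new DNA are expressed around S phase, whereas genes for the spindle, the centromere and the destruction of mitotic cyclins peak in G2 and M phase. Many G2 and M phase promoters hold a cell cycle genes homology region (CHR, TTTGAA or TTCGAA) near CCAAT boxes, which bind the factor NF-Y. Levels below are CPM, counts of UMIs (tags of single captured RNA molecules) scaled to a common total per pool, and percentages of UMIs are shares of all UMIs in a pool's cells of a cluster.

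The promoters of Cdc20 and Cdkn3, which were among the genes that stood highest in C3 over the other CD8+ cells, and of Mki67 are shown because each holds a CHR as well as CCAAT, and that of Cenpa, the first of those genes, because it holds CCAAT alone. The 150 bases before the annotated start are given from RefSeq on build GRCm38.p6, 5′ to 3′ on the gene's strand, with CHR and CCAAT letters on either strand in capitals (TTCAAA and ATTGG are their reverse complements).
Cdc20, chr4:118437344-118437493 (minus strand): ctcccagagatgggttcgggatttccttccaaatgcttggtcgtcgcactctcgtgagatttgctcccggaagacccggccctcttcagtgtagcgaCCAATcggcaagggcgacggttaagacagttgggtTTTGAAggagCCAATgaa
Cdkn3, chr14:46760391-46760540 (plus strand): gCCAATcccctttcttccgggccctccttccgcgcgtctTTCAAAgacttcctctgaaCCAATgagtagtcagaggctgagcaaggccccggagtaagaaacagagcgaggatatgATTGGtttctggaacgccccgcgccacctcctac
Mki67, chr7:135716380-135716529 (minus strand): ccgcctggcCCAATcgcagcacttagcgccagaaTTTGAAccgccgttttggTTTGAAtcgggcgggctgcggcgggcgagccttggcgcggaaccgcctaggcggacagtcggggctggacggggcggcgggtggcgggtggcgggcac
Cenpa, chr5:30666736-30666885 (plus strand): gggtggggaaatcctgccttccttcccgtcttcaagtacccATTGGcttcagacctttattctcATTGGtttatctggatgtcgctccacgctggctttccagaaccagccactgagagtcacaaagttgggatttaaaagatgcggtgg
In the 250 bases before the start, a CHR was found for 24 of the 59 genes of the G2 and M phase list that have a window (40.7%), for 6 of 39 of the S phase list (15.4%) and for 806 of the 6343 tested genes with a window (12.7%), with 17.4% of all 27025 RefSeq windows. CCAAT was present in 45 of the G2 and M phase windows (76.3%), in 24 of the S phase windows (61.5%) in 37.1% of those of all tested genes and in 34.5% of all windows. Both were present in 21 G2 and M phase windows (35.6%), against 5.19% over the tested genes and 6.21% over all windows. Of the 8 genes that led C3, 4 held a CHR and 7 held CCAAT. These are matches of letters in a fixed window, and binding was not measured.

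C3 cells carried mitotic RNA, and less RNA of S phase than C2 and C4. Averaged over the 9 pools, or for C4 over the 6 of saline and 5 mg/kg that held enough of its cells, Cenpa, the histone H3 variant of centromeres, stood at 705.5 CPM in C3, 286 CPM in C2, 318 CPM in C4 and 51.5 CPM in C7, a cluster of cells high in Ccr7, a gene of naive and central memory cells. Mki67 was at 638 CPM in C3, 624 CPM in C2, 3339 CPM in C4 and 46.4 CPM in C7. The near-equal means of C3 and C2 hide opposite orders by dose: C2 was at 747, 608 and 477 CPM in saline, at 5 mg/kg and at the high dose on the TMM scale, and C3 was above this in each saline pool and below it in each 50 mg/kg pool. Mcm5, a subunit of the replicative helicase, was at 84.0 CPM in C3 against 313 CPM in C2 and 268 CPM in C4. Pcna, the sliding clamp of DNA polymerase, was at 52.1 CPM in C3 and 199 CPM in C2, and its level in C7 was 43.8 CPM. Pclaf, of the S phase list, was at 397 CPM in C3, 787 in C2, 654 in C4 and 76.3 in C7. The cells were also effector cells by their RNA, with Gzmb (granzyme B) at 2571 CPM against 408 CPM in C7 and Gzma (granzyme A) at 2060 CPM against 279 CPM. All 10 CD8 T cell marker genes were found in C3. Cd4 had no UMI in any CD8+ cluster and so says nothing of C3 in particular.

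By list, genes of G2 and M phase made up 2.05 ± 0.0964% (SD, n = 3 pools) of the UMIs of C3 in saline, 1.74 ± 0.0823% in the 5 mg/kg group and 1.44 ± 0.0807% in the 50 mg/kg group. In C2 they made up 1.48, 1.52 and 1.43%, and in C7 0.373, 0.310 and 0.210%. Genes of S phase made up 0.372 ± 0.0147%, 0.297 ± 0.00887% and 0.187 ± 0.00388% in C3, against 0.962, 0.842 and 0.814% in C2. C3 was thus above C2 in G2 and M phase RNA in 7 of 9 pools and below C2 in S phase RNA in 9 of 9, and it was below C4 in both in all 6 pools that held enough C4 cells. Its S phase share was above those of C0, C1, C5 and C7 in 9 of 9 pools, C6 in 8 of 9 and C8 in 4 of 8. The cytotoxic list stood higher in C3 than in C2 in 9 of 9 pools, with 2.14, 2.65 and 3.02% of UMIs against 1.99, 2.40 and 2.69%. Its most abundant members were the galectin gene Lgals1, the calcium-binding protein gene S100a6 and Gzmb, so the share is not one of cytotoxic genes alone. Gzmb was at 2571 CPM in C3 and 2576 CPM in C2, Gzma at 2060 and 1771 CPM, and Prf1 (perforin) at 256 and 198 CPM. Glycolysis genes were lower than in C2 in 9 of 9 pools, and interferon-stimulated genes were higher in 9 of 9. Cluster names were drawn by the study from the same counts, so these differences between clusters describe C3 and carry no test.

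**Figure D1:**
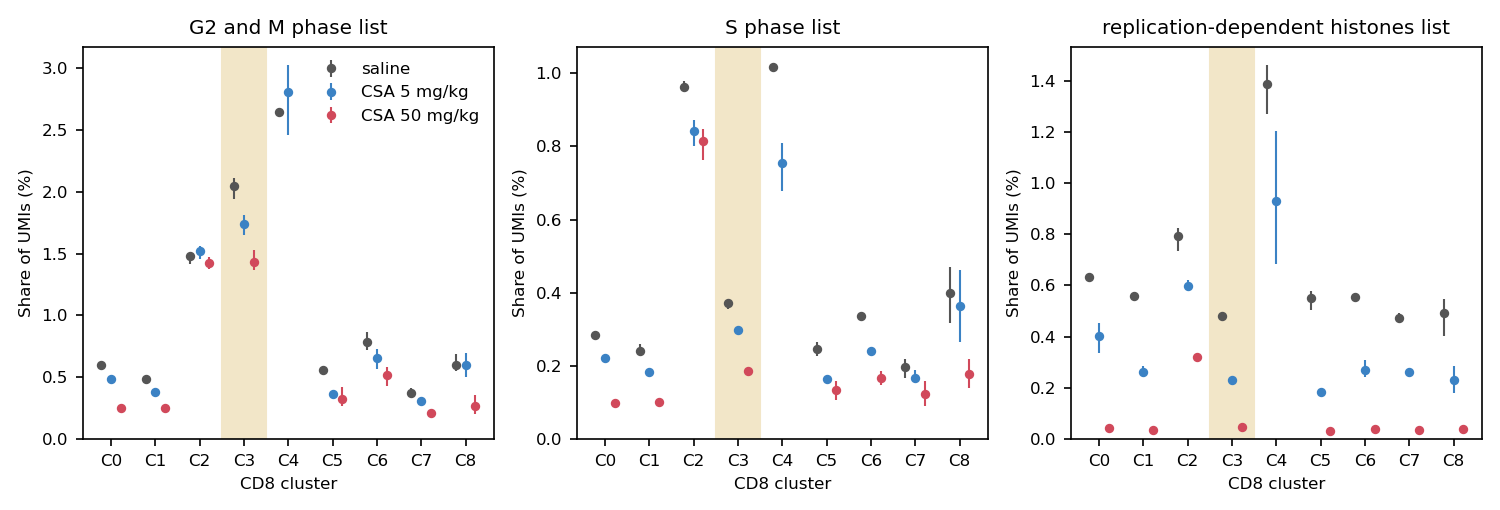
Share of UMIs (%) in each CD8+ cluster C0 to C8 for the lists of G2 and M phase, S phase and replication-dependent histone genes, in saline, CSA 5 mg/kg and CSA 50 mg/kg, where points are means of pools and bars run from the lowest to the highest pool, with C3 shaded. In saline C3 stood between C2 and C4 in G2 and M phase RNA (1.48, 2.05 and 2.65%) and below both in S phase RNA (0.372% against 0.962 and 1.02%).

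Single cells were compared after each was thinned to 2000 UMIs, which left out 14 C3 cells. The median C3 cell then held 35.7 UMIs of G2 and M phase genes in saline, 29.3 in the 5 mg/kg group and 22.8 in the 50 mg/kg group (means of 3 pools), and 6.67, 5.33 and 3.00 UMIs of S phase genes. The median C2 cell held 23.7, 27.0 and 23.3 UMIs of the first list and 19.5, 16.3 and 15.7 of the second, so that C3 stood above C2 in mean G2 and M phase UMIs in saline and at 5 mg/kg but not at 50 mg/kg. More G2 and M phase than S phase UMIs were found in 99.1, 95.5 and 97.3% of C3 cells, and in 58.5, 69.0 and 63.2% of C2 cells. Cells with at most 5 G2 and M phase UMIs made up 0.3003, 2.33 and 8.81% of C3. A Cenpa UMI was found in 63.9, 71.5 and 62.3% of thinned C3 cells, and a Mki67 UMI in 69.3, 51.7 and 30.7%. Unthinned, the shares with Mki67 were 82.7, 76.8 and 59.3%, against 11.3, 26.2 and 5.40% in C7 (thinned, 7.27, 14.1 and 1.16%), at median depths of 4268, 6728 and 8136 UMIs in C3 and 3499, 4514.5 and 4995 UMIs in C7.

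Against all other CD8+ cells, 8 genes of mitosis led C3 with the same sign in every pool (mean log2 difference ± SD over 9 pools, with 5 CPM added to each level). Cenpa was higher by 1.78 ± 0.38 (706 against 204 CPM), Cdc20, the activator of the anaphase-promoting complex, by 1.69 ± 0.35, and Ccnb2 (cyclin B2) by 1.62 ± 0.27. The phosphatase gene Cdkn3 (1.40 ± 0.30), the spindle pole gene Aspm (1.38), the spindle and kinetochore genes Knstrn (1.35) and Cenpf (1.30) and the spindle gene Ckap2 (1.29) followed. The genes that stood lowest were of S phase, among them Esco2, which acetylates cohesin on new sister chromatids (-2.10), Hist1h2ap (-1.89) and the replication checkpoint gene Clspn (-1.75), together with the chemokine gene Ccl4 (-1.65, 137 against 445 CPM). Within the cycling clusters, genes that stood lower in C3 than in C2 included Hist1h2ap (-2.80), Cdc6, which loads the replicative helicase (-2.72, 7.54 against 73.0 CPM), Esco2 (-2.69, 11.3 against 95.7 CPM) and Rrm2, a subunit of ribonucleotide reductase (-2.21, 99.5 against 471 CPM). Of 3349 genes of at least 50 CPM in C3 or C2, 683 (20.4%) were higher and 684 (20.4%) lower in every pool, of which 11 and 113 differed by 2-fold or more on average. Against C4, over 6 pools, 774 of 4233 genes (18.3%) were higher in C3 and 1688 (39.9%) lower, and the lowest were Esco2 (-3.24) and the E2F repressors E2f7 (-2.99) and E2f8 (-2.84).

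C3 made up 14.8, 14.1 and 14.0% of CD8+ cells in the saline pools, 14.0, 17.3 and 16.1% at 5 mg/kg, and 18.7, 16.4 and 24.5% at 50 mg/kg. Of the cells of the 3 cycling clusters, it made up 26.8 ± 0.652% in saline, 32.0 ± 1.71% in the 5 mg/kg group and 43.8 ± 2.61% in the 50 mg/kg group (SD, n = 3 pools). The 2 groups at the ends did not overlap in either share. C4 fell from 1015 cells in saline to 81 and 20 over the same doses, while C2 held 796, 823 and 875. These shares were not tested, because the genes that mark the clusters differed between doses.

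Within C3, 8034 genes passed the filter on low counts and were tested over the 9 pools in 1 edgeR quasi-likelihood fit. At 5 mg/kg 1558 genes rose (19.4%) and 1344 fell (16.7%) against saline at an adjusted p under 0.05. At 50 mg/kg 2326 rose (29.0%) and 2409 fell (30.0%). Between the doses 811 genes were higher at 50 mg/kg (10.1%) and 907 lower (11.3%). Groups did not overlap for 46.3, 62.8 and 34.9% of genes in the 3 comparisons. The contrasts share their control pools and are given side by side, as descriptions of each dose. Fold changes below are log2 changes ± SE of this fit with its adjusted p, on the scale of TMM normalization, under which 0 is close to the median gene. Without TMM, on plain library sizes, the median gene shifted by -0.36 and -0.46 at the 2 doses, and the numbers became 607 higher and 3174 lower at the low dose, 962 and 4171 at the high dose, and 466 and 1256 between the doses.

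The changes varied with transcript length, and this touches every gene group below. Among the 7811 genes with a length, split into 10 bins, the bin with the shortest transcripts (median 620 bases) had a median log2 change of 0.44 (5 mg/kg) and 0.51 (50 mg/kg), and the bin with the longest (median 5982 bases) had -0.53 and -0.84. Spearman's rho of change with length was -0.53 and -0.52 across genes, which share libraries and are not independent. Between 50 and 5 mg/kg it was -0.25. UMIs per cell also rose with dose, from a median of 4268 to 8136, and the part of length and depth in the changes was not tested. For several lists, the median change is therefore also given relative to genes in the same bin of length.

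**Figure D2:**
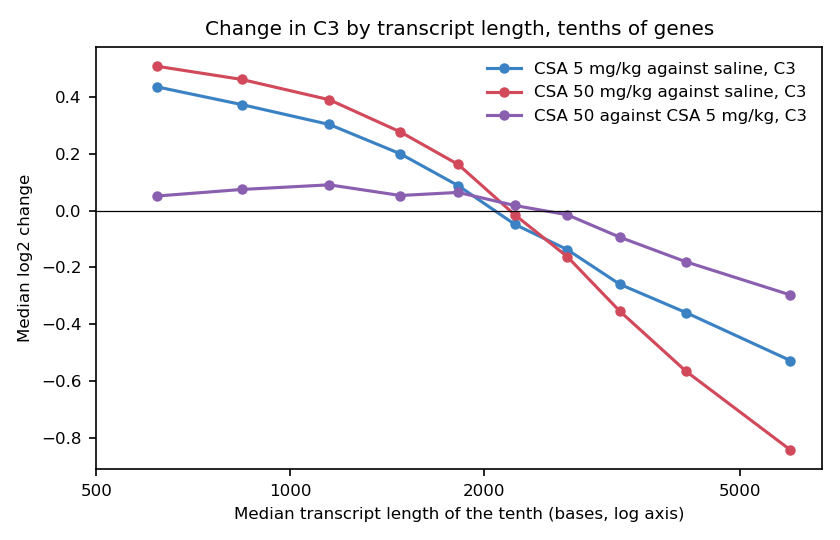
Median log2 change in C3 (y axis) in each of 10 bins of genes by transcript length in bases (x axis), for CSA 5 mg/kg against saline, 50 mg/kg against saline and 50 against 5 mg/kg. Both comparisons with saline run from above 0 in the shortest bin (0.44 and 0.51) to below 0 in the longest (-0.53 and -0.84), and the comparison of the doses runs from 0.05 to -0.30.

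Genes of G2 and M phase fell in C3 more often than they rose at 50 mg/kg, where 40 of 70 tested fell and 13 rose, with a median of -0.45. The shares over all genes were 30.0 and 29.0%. At 5 mg/kg 20 fell and 14 rose (median -0.07), against 16.7 and 19.4% of all genes. Mki67 measured 841, 909.8 and 997 CPM in the saline pools, 614, 531 and 688 CPM at 5 mg/kg and 301, 287 and 285 CPM at 50 mg/kg. The 3 groups did not overlap, and its change was -0.58 ± 0.07 (adjusted p = 2.8e-07) at the low dose and -1.66 ± 0.08 (adjusted p = 1.8e-17) at the high dose by edgeR. Mki67 is the given marker of C3, and the clusters were made from these same counts and divided by cell cycle genes. The p-values of such genes, here and in the paragraphs that follow, thus describe cells selected in part by these levels. The part of that selection in the changes was not tested. Mki67 has long transcripts, and relative to genes of like length its changes were -0.05 and -0.82. Aspm took the same course, at 303, 322 and 308 CPM in the saline pools, 182, 147 and 176 CPM at 5 mg/kg and 81.7, 71.6 and 86 CPM at 50 mg/kg, a change of -1.95 ± 0.09 (adjusted p = 4.6e-17) at the high dose by edgeR. Nek2, a kinase of centrosome separation (-1.42), Ect2, which activates RhoA in cytokinesis (-1.51), Cbx5, the heterochromatin protein HP1 alpha (-1.92), and Cenpf (-0.97) also fell at 50 mg/kg. Shorter transcripts of the list behaved otherwise: of the 35 shorter, 12 rose and 14 fell at 50 mg/kg (median -0.06), and of the 35 longer, 1 rose and 26 fell (median -0.61). Relative to genes of like length the list's median was -0.30.

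Cenpa, by contrast, rose, with 488, 528 and 586 CPM in the saline pools, 789, 813 and 784 CPM at 5 mg/kg and 885, 787 and 876 CPM at 50 mg/kg. Each CSA pool lay above each saline pool, the changes were 0.57 ± 0.07 (adjusted p = 5.0e-08) and 0.67 ± 0.06 (adjusted p = 3.8e-10) by edgeR, and the difference between the doses did not pass the threshold (0.10). Cenpa has short transcripts, and relative to genes of like length its changes were 0.14 and 0.16. Ccnb2 measured 331, 381 and 379 CPM in the saline pools, 561, 504 and 514 CPM at 5 mg/kg and 560.2, 537 and 595 CPM at 50 mg/kg and rose by 0.52 and 0.64. Cdkn3 rose by 0.70 and 1.07, from a mean of 84.1 to 178 CPM. Of the other leading genes, Knstrn rose at both doses on the TMM scale (0.38 and 0.37), but its change at 50 mg/kg was -0.0883 on plain library sizes. Cdc20 did not pass the test at either dose, with means of 247, 251 and 264 CPM in saline and at 5 and 50 mg/kg. In the list of core centromere and kinetochore genes, 7 of 30 rose and 9 fell at 50 mg/kg (median 0.00), against 29.0 and 30.0% of all genes. Cenpw, a histone-fold subunit of the inner kinetochore, rose from 60.8, 57.8 and 69.3 CPM to 189.7, 171 and 137 and 139, 112 and 127 CPM, by 1.37 and 1.01. Cenpm (0.87) and Cenpx (0.80) also rose at 50 mg/kg, whereas Hjurp, the chaperone that loads Cenpa (-1.24), and Knl1, the scaffold of the outer kinetochore (-0.86), fell. Changes at 50 mg/kg relative to genes of like length were 0.80 for Cdkn3, 1.17 for Cenpw and 0.36 for Ccnb2. They were 0.36 for Cenpm, 0.29 for Cenpx, -1.23 for Hjurp and -0.02 for Knl1. The abundant chromatin gene Hmgb2 rose by 0.38 at 50 mg/kg, but was at -0.0824 on plain library sizes.

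S phase genes, lower in C3 than in C2 and C4, fell at the high dose. At 50 mg/kg 36 of 47 fell and 1 rose (median -0.64, and -0.74 relative to genes of like length), against 30.0 and 29.0% of all genes. At 5 mg/kg 4 fell and 3 rose, against 16.7 and 19.4%. Between the doses 31 of the 47 were lower at 50 mg/kg and none was higher, with 907 of 8034 (11.3%) lower over all genes. Hells, a chromatin remodeller of replicating cells, was at 74.6, 72.6 and 65.3 CPM in the saline pools, 59.5, 69.1 and 54.1 CPM at 5 mg/kg and 21.5, 19.7 and 19.1 CPM at 50 mg/kg. The saline and 5 mg/kg pools overlapped and the 50 mg/kg pools lay below all of them, with a change of -1.82 ± 0.16 (adjusted p = 2.8e-11) by edgeR. Cdc6 was at 13.8, 11.7 and 9.67 CPM in the saline pools, 4.82, 7.12 and 11 CPM at 5 mg/kg and 2.15, 1.46 and 1.56 CPM at 50 mg/kg, a change of -2.72 ± 0.43 (adjusted p = 3.4e-06) by edgeR at levels of few UMIs. Dtl (-2.42), which directs the degradation of licensing factors, and Clspn (-1.79) fell as well. Pclaf, a PCNA-binding protein, went against the list with 333, 356 and 334 CPM in the saline pools, 468, 459 and 442 CPM at 5 mg/kg and 409.8, 399 and 431 CPM at 50 mg/kg, higher than saline by 0.42 and 0.28, of which the second was -0.18 on plain library sizes. Of 19 genes of G1 cyclins, their kinases and inhibitors, 8 rose and 7 fell at 50 mg/kg, against 29.0 and 30.0% of all genes. The G1 kinase gene Cdk6 (-1.98) and the pocket protein gene Rbl1 (-1.87) fell.

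Replication-dependent histone genes fell furthest of all lists. At 50 mg/kg 25 of 27 fell and 1 rose, with a median of -3.20, and at 5 mg/kg 18 fell and 1 rose (median -0.77). Over all genes 30.0% fell at 50 mg/kg and 16.7% at 5 mg/kg. The linker histone gene Hist1h1b measured 745, 798 and 795 CPM in the saline pools, 437, 386 and 437 CPM at 5 mg/kg and 86.7, 78.9 and 72.8 CPM at 50 mg/kg, without overlap, and changed by -0.89 ± 0.07 (adjusted p = 7.4e-12) and -3.31 ± 0.08 (adjusted p = 7.4e-24) by edgeR. The list's share of UMIs in C3 was 0.479, 0.231 and 0.0472% over the doses, and in C7, whose cells showed little other cell cycle RNA, it was 0.471, 0.263 and 0.0368%. In C2 it was 0.795, 0.599 and 0.321%. The level in C3 was above that in C7 in 6 of 9 pools. Relative to genes of like length the median at 50 mg/kg was -3.70. Histone genes have near-identical copies, between which reads can be split, so single members are less certain than the list. Most of these transcripts lack a poly(A) tail, and how the libraries captured them was not tested.

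**Figure D3:**
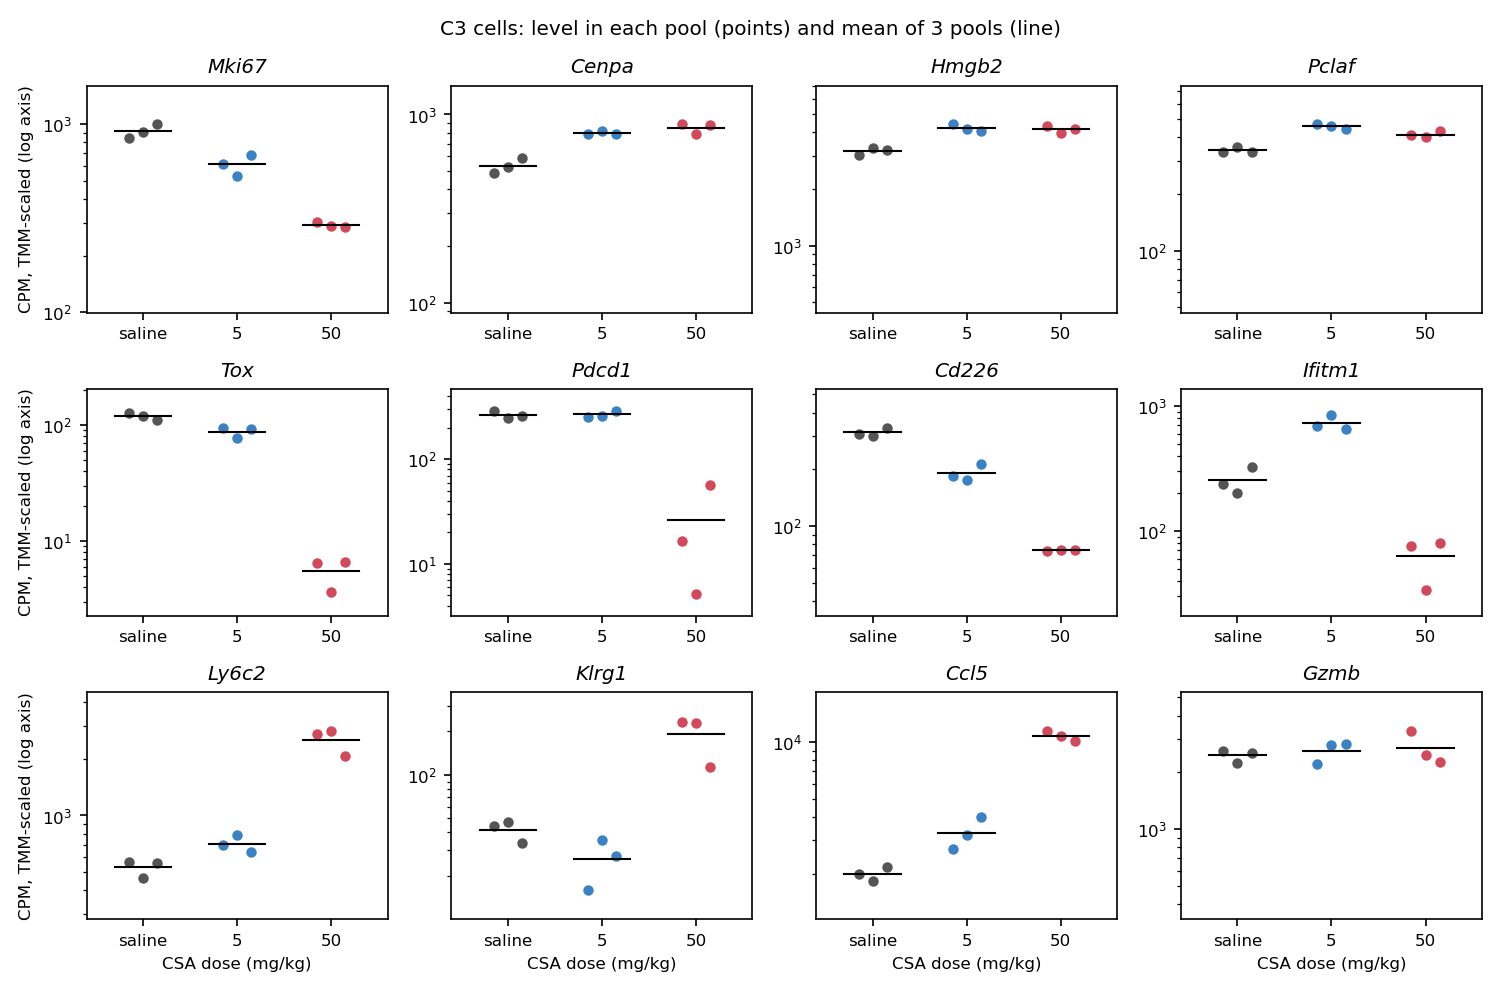
TMM-normalized level in C3 (CPM, log axis) of 12 genes by pool in saline, CSA 5 mg/kg and CSA 50 mg/kg, where each point is 1 pool of 2 mice and the line is the mean of 3 pools. Mki67 fell from 841, 909.8 and 997 CPM in saline to 301, 287 and 285 CPM at 50 mg/kg while Cenpa rose from 488, 528 and 586 to 885, 787 and 876 CPM. Their log2 changes relative to genes of like length were -0.82 and 0.16.

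Ribosomal protein genes rose throughout C3, with 60 of 60 higher than saline at each dose (medians 0.85 and 1.09). Their share of UMIs went from 9.84% to 14.4 and 14.8%. Genes of oxidative phosphorylation rose in 71 of 77 cases at 5 mg/kg and in 74 at 50 mg/kg, with none falling and medians of 0.84 and 0.97. Over all genes 19.4% rose at 5 mg/kg and 29.0% at 50 mg/kg. Most of the step lay between saline and 5 mg/kg: Atp5l, a subunit of ATP synthase, was at 360.3, 324 and 355 CPM in the saline pools, 932, 848 and 816 CPM at 5 mg/kg and 898, 943 and 966 CPM at 50 mg/kg. Ndufa1, of respiratory complex I, changed by 1.48 and 1.43, and Rpl39 by 1.59 and 1.34. These are short transcripts, and relative to genes of like length the medians at 50 mg/kg were 0.60 for ribosomal proteins and 0.55 for oxidative phosphorylation. Of 19 genes of glycolysis, 10 rose and 5 fell at 50 mg/kg, against 29.0 and 30.0% of all genes. Their median was 0.21, and -0.25 on plain library sizes. Gapdh rose from 319.8, 329 and 349.8 to 794, 813 and 813 CPM, while the glucose transporter gene Slc2a3 (-1.64) and the hexokinase gene Hk1 (-1.23) fell.

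The cytotoxic effector list also holds S100a4, S100a6, Lgals1 and Anxa1. Of its 29 tested genes, 16 were higher and 9 lower than saline at 50 mg/kg, against 29.0 and 30.0% of all genes. The median was 0.25, -0.15 relative to genes of like length and -0.20 on plain library sizes. At 5 mg/kg 18 were higher and 4 lower, against 19.4 and 16.7%. Gzmb did not pass the test at either dose, with 2603, 2245 and 2538 CPM in the saline pools, 2221, 2785 and 2821 CPM at 5 mg/kg and 3324, 2483 and 2279.9 CPM at 50 mg/kg. Gzma was higher at 5 mg/kg (0.77) and did not pass at 50 mg/kg, with means of 1686, 2876 and 1719 CPM. Gzmc (granzyme C) rose by 2.85 ± 0.29 (adjusted p = 1.3e-09) at the high dose by edgeR, from 6.45, 10.2 and 13.7 to 102, 71.6 and 58 CPM. The calcium-binding protein gene S100a6 measured 2369, 2291 and 2639 CPM in the saline pools, 6317, 6589.6 and 6382 CPM at 5 mg/kg and 10274, 10494 and 11054 CPM at 50 mg/kg, in 3 groups that did not overlap. S100a4 (2.43) and Lgals1 (galectin 1, 1.13) rose with it at 50 mg/kg, and Anxa1 (annexin A1) rose from 60.8, 46.1 and 41.9 to 362, 439 and 300.5 CPM. Cx3cr1, the fractalkine receptor of terminal effector cells, fell from 100.4, 82 and 88.7 CPM to 51.4, 46.8 and 50.9 and 7.88, 11 and 5.06 CPM, a change of -3.60 ± 0.20 (adjusted p = 7.9e-16) by edgeR.

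Among cytokines and chemokines, 6 of 11 rose and none fell at 5 mg/kg, against 19.4 and 16.7% of all genes. At 50 mg/kg 3 rose and 5 fell, against 29.0 and 30.0%. Ccl5, a chemokine stored by memory and effector CD8+ cells, measured 1987, 1831 and 2164 CPM in the saline pools, 2699, 3188 and 3979.8 CPM at 5 mg/kg and 11494, 10768 and 10104 CPM at 50 mg/kg, a change of 2.44 ± 0.08 (adjusted p = 2.3e-20) at the high dose by edgeR. Ifng (interferon gamma) overlapped between saline and 5 mg/kg and fell at 50 mg/kg, from 61.7, 63.3 and 50.0 to 34.4, 29.9 and 37 CPM (-0.76). Xcl1, which attracts cross-presenting dendritic cells (-2.99), and Csf1, the macrophage growth factor (-2.61), fell. Ccl1 was found with 44 UMIs in saline, 33 at 5 mg/kg and none among 6140941 at 50 mg/kg, which allows up to 0.489 CPM (counting error only).

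Genes that calcineurin, NFAT and TCR signals induce fell in 18 of 34 cases at 50 mg/kg and rose in 7 (median -0.69), against 30.0 and 29.0% of all genes. With the low dose 8 fell and 6 rose, shares close to the 16.7 and 19.4% of all genes. The costimulatory receptor gene Tnfrsf9 (4-1BB) was at 142, 146 and 123 CPM in the saline pools, 101, 117 and 119.9 CPM at 5 mg/kg and 35.8, 44.5 and 33.1 CPM at 50 mg/kg, of which the step from saline to 5 mg/kg did not pass the test. Tnfrsf4 (OX40, -3.30), the nuclear receptor gene Nr4a2 (-2.42) and Ikzf2 (Helios, -2.74) also fell. Nrgn, which encodes the calmodulin-binding protein neurogranin, rose at 5 mg/kg and fell at 50 mg/kg, with 90.3, 72.6 and 66.1 CPM in the saline pools, 148, 141 and 109 CPM at 5 mg/kg and 11.5, 8.03 and 20.6 CPM at 50 mg/kg. The AP-1 genes Jund (1.10) and Junb (0.56) rose at 50 mg/kg.

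Inhibitory and costimulatory receptors differed between the doses, with 12 of 17 falling at 50 mg/kg (median -1.12, and -1.14 relative to genes of like length) and 6 falling and 3 rising at 5 mg/kg (median -0.20). Over all genes 30.0% fell at 50 mg/kg, and 16.7% fell and 19.4% rose at 5 mg/kg. The 1 that rose at 50 mg/kg was Cd27, the receptor of CD70, by 0.32, which was -0.14 on plain library sizes. Set against the 5 mg/kg pools, 12 were lower at 50 mg/kg and 1 was higher (median -1.15), against 11.3 and 10.1% of all genes. Pdcd1, which encodes PD-1, measured 292, 249 and 262 CPM in the saline pools, 256, 260.2 and 288 CPM at 5 mg/kg and 16.5, 5.11 and 56.8 CPM at 50 mg/kg. The saline and 5 mg/kg pools overlapped, the change at 5 mg/kg was 0.01 ± 0.19 (adjusted p = 0.97), and that at 50 mg/kg was -3.08 ± 0.24 (adjusted p = 4.3e-12) by edgeR, in pools as unequal as 5.11 and 56.8 CPM. Tox, the transcription factor of the exhaustion program, measured 126, 118 and 110.4 CPM in the saline pools, 93.2, 76.2 and 92.4 CPM at 5 mg/kg and 6.45, 3.65 and 6.62 CPM at 50 mg/kg. Its change was -4.32 ± 0.18 (adjusted p = 2.1e-18) at 50 mg/kg by edgeR, and the smaller change at 5 mg/kg, -0.44 ± 0.12 (adjusted p = 0.0052), did not pass without the second pool of that group. Cd226, the activating partner of Tigit, fell at both doses, from 309.6, 299 and 333 CPM to 183, 175 and 214 and 73.8, 74.5 and 74.7 CPM, while Tigit itself rose at 5 mg/kg and fell at 50 mg/kg, with means of 188, 253 and 111 CPM. Havcr2 (TIM-3) fell at both doses (-0.75 and -1.12). Lilr4b, another receptor gene of the list, fell only in the second step, from 45.2, 48.4 and 54.8 and 43.4, 53.9 and 58.8 CPM to 1.43, 1.46 and 2.34 CPM.

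**Figure D4:**
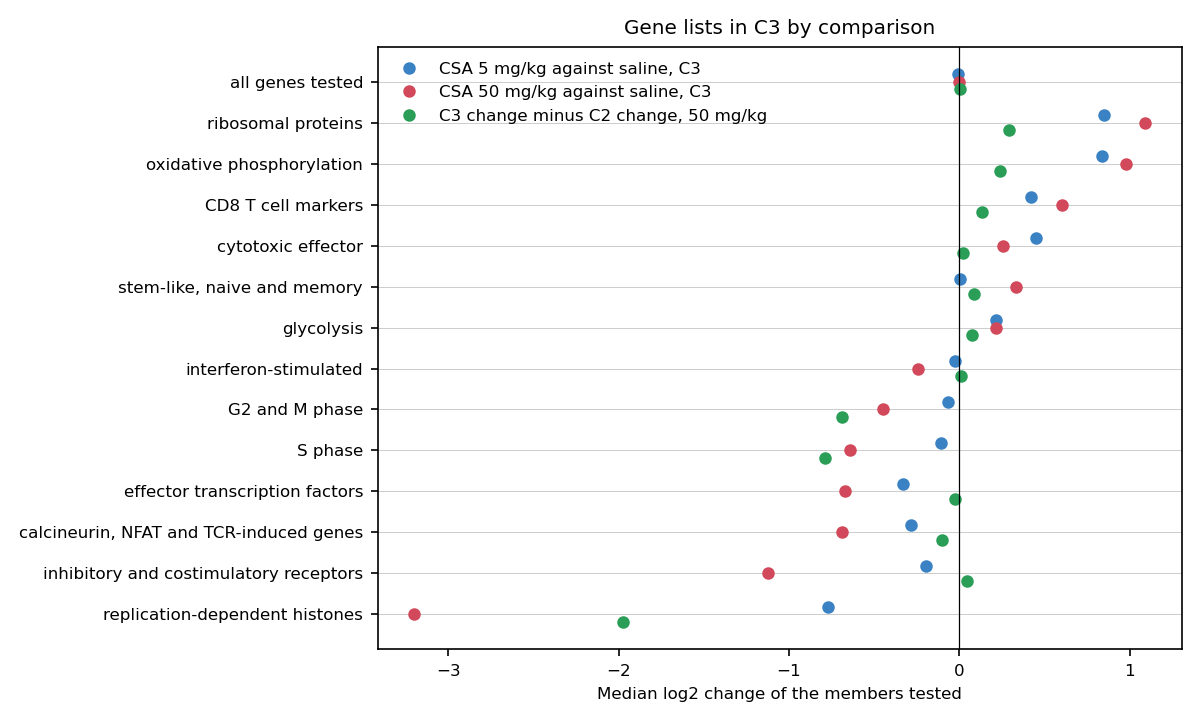
Median log2 change of the tested members of 14 gene lists in C3 for CSA 5 mg/kg against saline and 50 mg/kg against saline, and median of the change in C3 minus the change in C2 at 50 mg/kg. Histone genes lie lowest (-3.20 at 50 mg/kg), inhibitory and costimulatory receptors fell at 50 mg/kg (-1.12) more than at 5 mg/kg (-0.20), and ribosomal protein genes lie highest (1.09).

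Genes of stem-like, naive and memory cells rose in 10 of 23 cases and fell in 5 at 50 mg/kg (median 0.33, 0.44 relative to genes of like length and -0.13 on plain library sizes), against 29.0 and 30.0% of all genes. With the low dose 5 rose and 1 fell, against 19.4 and 16.7%. Ly6c2, a surface marker of effector and central memory CD8+ cells, was at 564, 466 and 559 CPM in the saline pools, 696, 784 and 642 CPM at 5 mg/kg and 2717, 2816 and 2064 CPM at 50 mg/kg, a change of 2.25 ± 0.09 (adjusted p = 6.2e-19) by edgeR. Klf2, a factor of quiescence and T cell trafficking, rose at 50 mg/kg by 0.90. Tcf7, the factor of self-renewing T cells, instead fell at 50 mg/kg (means of 41, 35.9 and 15.4 CPM), as did Il7r (-0.54) and Bcl2 (-1.49). Klrg1, a marker of short-lived effector cells, measured 44.2, 46.9 and 33.8 CPM in the saline pools, 16.1, 35.6 and 27.4 CPM at 5 mg/kg and 233, 227 and 113 CPM at 50 mg/kg, and Klrd1 (CD94) rose at both doses, by 0.68 and 1.63.

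Of 18 effector transcription factors, 13 fell and 1 rose at 50 mg/kg (median -0.67), and 9 fell and 3 rose at 5 mg/kg. For this and the next lists, the shares over all genes were 30.0% falling and 29.0% rising at 50 mg/kg. At 5 mg/kg they were 16.7 and 19.4%. Zeb2, a factor of terminal effector differentiation, changed by -2.26 at 50 mg/kg, and Hif1a (-1.64) and Bhlhe40 (-1.57) fell as well. Hopx was the factor that rose at 50 mg/kg (1.14). Of 32 interferon-stimulated genes, 13 fell and 6 rose at 50 mg/kg and 8 and 5 at 5 mg/kg. Ifitm1 rose and then fell with dose, at 238, 202 and 322 CPM in the saline pools, 696, 851 and 653 CPM at 5 mg/kg and 76.7, 33.6 and 79.8 CPM at 50 mg/kg, and the 3 groups did not overlap. Ifitm3 did likewise, with means of 49.9, 132 and 8.27 CPM. Apoptosis regulators (7 of 26 higher, 10 lower) and stress genes (6 of 18 higher, 7 lower) had no common direction at 50 mg/kg. Of 37 tested genes that the study displayed for its CD8+ clusters, chosen by it on these samples and so no independent evidence, 20 fell and 8 rose at 50 mg/kg (median -0.33), and 8 fell and 11 rose at 5 mg/kg (median 0.09).

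The largest changes were ranked among genes of at least 50 CPM at 50 mg/kg with no overlap of pools. T cell receptor, immunoglobulin and mitochondrial genes, genes named Gm or Rik, and Jchain, which is given with the B cell markers, were left out. Of the 8 largest rises, 6 were of genes nearly absent in saline. The limit bears on the 50 mg/kg level alone, so a ranking by log2 change favors genes low in saline. Cd163l1, a scavenger receptor gene known from gamma-delta T cells, was at 0, 0 and 3.22 CPM in saline and 146, 148 and 85.2 CPM at 50 mg/kg. The transcription factor genes Msc, at 2.76, 0.781 and 2.42 CPM in saline and 129.7, 126 and 82.9 CPM at 50 mg/kg, and Mef2c, at 0, 1.56 and 2.42 and 85.2, 57.7 and 65 CPM, followed. Lmna (lamin A) stood at 2.76, 1.56 and 2.42 CPM in saline and 94.6, 119.8 and 74.7 CPM at 50 mg/kg, and the homing receptor genes Ccr10 (skin) and Gpr15 (colon) at 60.2, 58.4 and 57.6 CPM and 68.1, 75.9 and 35 CPM at 50 mg/kg, against at most 1.56 and 2.76 CPM in a saline pool. All of them were also at most 6.43 CPM in each 5 mg/kg pool. By the same limits, with 50 CPM in saline, the 8 largest falls were of 6 histone genes, Tox and Gprin3 (-3.69). At 5 mg/kg the leading rises were of short genes of respiration and the ribosome, Pet100 (1.87), Rpl38 (1.74) and Rps29 (1.70), and the falls included Klhl9 (-1.57) and the integrin gene Itga4, which went from 1760.0, 1774 and 1709 CPM to 638, 618 and 718 CPM.

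Markers of other cells moved with dose in part. B cell markers took 0.0277% of UMIs in saline (0.0250 to 0.0301% over pools), 0.0537% at 5 mg/kg (0.0262 to 0.107%) and 0.140% at 50 mg/kg (0.101 to 0.186%), with 13 of 14 found in at least 1 UMI. The plasma cell gene Jchain led them, at 4.61, 9.37 and 0 CPM in the saline pools, 1.61, 352 and 0 CPM at 5 mg/kg and 1330.3, 946 and 608 CPM at 50 mg/kg, of which 1 pool held nearly all at 5 mg/kg. Myeloid markers took 0.0225, 0.0230 and 0.0229% in sum, with 17 of 18 found and Lyz1 at 0. Of the 8 tested, 3 rose at 50 mg/kg, against 29.0% of all genes, and none fell: Itgam (1.56), Cd68 (1.00) and Ctss (0.58), each without overlap of the saline and 50 mg/kg pools. Itgam was at 7.37, 12.5 and 10.5 CPM in saline and 30.8, 35.8 and 26.9 CPM at 50 mg/kg. The CD4 and regulatory T cell list took 0.00223, 0.00223 and 0.000439%, with 3 of 4 found and Cd4 at 0, and the list of NK and gamma-delta T cells 0.00775, 0.0134 and 0.00279%, with 8 of 9 found and Klra4 at 0. Erythroid markers took 0.000863, 0.00121 and 0.00262%. CD8 T cell markers rose in 10 of 10 cases at 50 mg/kg (median 0.60), Cd8b1 from 1168, 1273 and 1285 to 3430.0, 3484 and 3154 CPM. The part of these other cells in the results was not tested.

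The change in C3 was then compared with the change in C2 in an edgeR fit with the pool as a block, over 9154 genes. At 5 mg/kg 142 genes (1.55%) changed differently, 81 more upward in C3 (0.885%) and 61 more downward (0.666%). At 50 mg/kg 581 did (6.35%), 297 upward (3.24%) and 284 downward (3.10%). On plain library sizes the numbers were 50 upward and 79 downward at the low dose and 154 and 429 at the high dose. Among cell cycle genes, 46 of 71 G2 and M phase genes and 37 of 52 S phase genes fell more, or rose less, in C3 at 50 mg/kg, with medians of -0.69 and -0.79, against 3.10% of all genes, and 1 and 0 went the other way. At 5 mg/kg the numbers were 23 and 0. C3 and C2 were themselves divided by such genes, and the part of that division in these differences was not tested. The change of Mki67 at 50 mg/kg differed from its change in C2 by -1.02 ± 0.08 (adjusted p = 1.7e-12) by edgeR, with C2 at 747 CPM in saline and 477 CPM at 50 mg/kg. Rrm2 was at 107 and 90.4 CPM in C3 and at 389 and 604 CPM in C2, a difference of -0.90 ± 0.12 (adjusted p = 1.6e-06) by edgeR. Cenpa differed by 0.33, upward in C3, and for Ccnb2 the difference was 0.03, which did not pass. Set against all other CD8+ cells in place of C2, 75 of 10126 genes differed upward in C3 and 367 downward at 50 mg/kg. S phase genes again fell more in C3 (18 of 52, median -0.46), but G2 and M phase genes fell less (18 of 71 upward, none downward, median 0.27). These other cells changed in make-up with dose, with C4 at 1015, 81 and 20 cells and C0 at 940, 210 and 560. The part of this in the differences was not tested. Ribosomal protein genes rose more in C3 than in C2 (60 of 60, median 0.29) and less than in all other CD8+ cells (49 downward, median -0.23). For the inhibitory receptors the comparison with C2 gave 1 of 19 upward and none downward, so their fall was not distinguished from that in C2.

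Clonotypes were read by the authors from separate TCR libraries of the same cells, and so give a measure other than the gene counts behind the clusters. A clonotype was known for 176, 184 and 194 C3 cells in the saline pools, 85, 133 and 141 at 5 mg/kg, and 200, 161 and 289 at 50 mg/kg. The Simpson index, the chance that 2 C3 cells of a pool share a clonotype, was 0.786, 0.279 and 0.176% in saline, 0.0840, 0.103 and 0.132% at 5 mg/kg, and 0.0503, 0.0543 and 0.0601% at 50 mg/kg. The 3 groups did not overlap. The highest value was of the first saline pool, in which 1 clonotype held 13 cells (7.39%), while the largest clonotype held 2 to 4 cells in each CSA pool. At an equal 85 cells per pool, 16.9, 15.1 and 10.7% of C3 cells were in clonotypes of 2 or more cells in saline, 7.06, 8.45 and 7.40% at 5 mg/kg, and 4.0, 4.75 and 4.76% at 50 mg/kg.

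C3 cells also shared fewer clonotypes with the other cycling clusters as the dose rose. The share of C3 cells whose clonotype was also found in C2 or C4 of the same pool was 30.7, 31.0 and 34.0% in saline, 16.5, 18.8 and 19.1% at 5 mg/kg, and 9.50, 8.07 and 13.5% at 50 mg/kg. For C2 alone it was 22.7, 19.0 and 22.2%, then 16.5, 16.5 and 18.4%, and 9.50, 8.07 and 13.5%. For C4 it was 29.0, 23.9 and 25.8% in saline and 0% at 50 mg/kg, where 6, 7 and 6 C4 cells had a clonotype against 275, 311 and 277 in saline. C2 held 178, 210 and 223 cells with a clonotype in saline and 258, 223 and 316 at 50 mg/kg. With the non-cycling clusters it was 31.8, 33.7 and 26.8% in saline, 16.5, 11.3 and 13.5% at 5 mg/kg, and 13.0, 16.8 and 12.5% at 50 mg/kg. The trend over the 3 ordered doses, tested by exact permutation of all 1680 assignments of the 9 pools (Jonckheere-Terpstra statistic, two-sided), had p = 0.00119 for the Simpson index, for the cells in clonotypes of 2 or more at equal numbers and for the overlap with C2 or C4, which is the smallest it can give, and 0.00119 after adjustment over the 3 tests. For the overlap, the numbers of C2 and C4 cells were not made equal between pools, and the part of the loss of C4 cells in its trend was not tested. The overlap with C2 alone was not tested either.

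**Figure D5:**
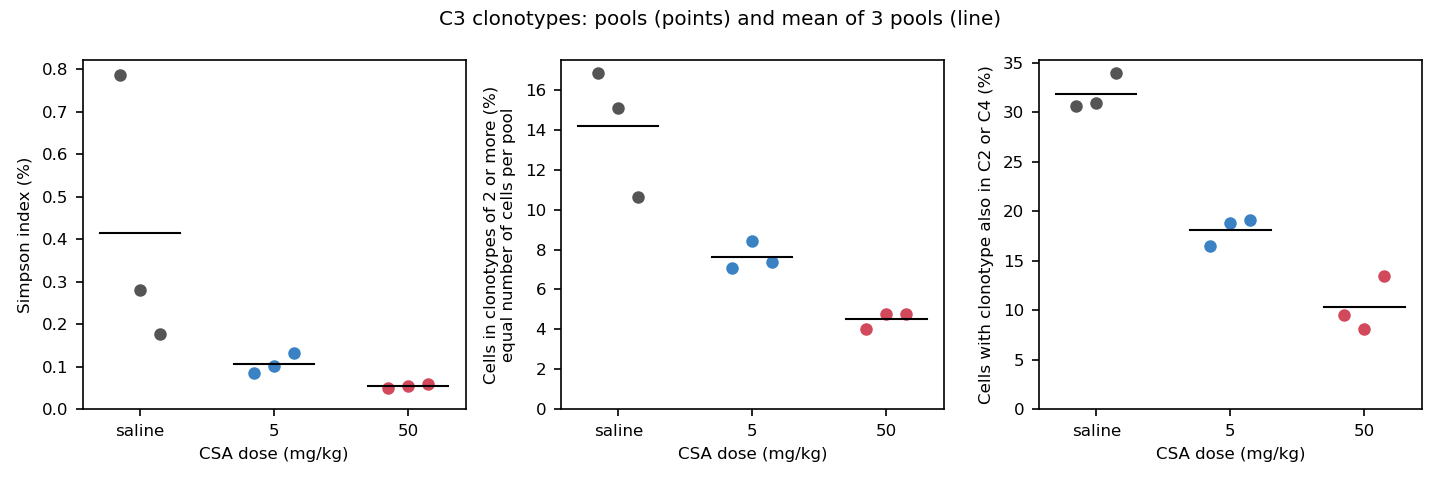
Simpson index (%), share of C3 cells in clonotypes of 2 or more cells at 85 cells per pool (%), and share of C3 cells whose clonotype is also in C2 or C4 (%), by treatment group, where each point is 1 pool and the line is the mean of 3 pools. All 3 measures were highest in saline and lowest at 50 mg/kg, where the Simpson index lay between 0.0503 and 0.0601%, with no overlap between groups.

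The pool of a cell rests on its hashtag, and this was uneven. In 151 of 1795 C3 cells, a second hashtag had at least 0.5 times the strength of the strongest, or the strongest was not that of the pool. These were 24 in saline, 58 and 69 at the low and high dose, and made up 30.2% of C3 in the third pool at 5 mg/kg and at most 14.9% in any other. A hashtag other than that of the pool was strongest in 111 C3 cells (13, 45 and 53 by group), with 45 in the third pool at 5 mg/kg. A barcode was shared with another capture for 24 C3 cells. Restricted to cells whose own hashtag was strongest and alone, the 3 trend tests gave p of at most 0.00357 (exact permutation test).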

How the data were processed

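The samples were splenic T cells of 3 treatment groups, each 1 capture of 10x Chromium 5' v2 libraries with 3 hashtagged pools of 2 mice. The counts deposited by the authors are unnormalized UMIs of each gene in each cell, made with Cell Ranger on mm10 (Seurat 3.0.0 is also named in the submitters' processing notes) and filtered to 18029 genes and the cells they kept, and the per-cell totals in the deposited cell table were equal to their sums in all 10833 CD8+ cells. The deposited hashtag values were antibody UMI counts, and the mitochondrial fraction per cell was computed by the authors. Clusters, pools and clonotypes were taken as deposited. Doublet removal is not given in the sources used here.

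Counts of C3 cells were summed per pool and fitted with edgeR 4.0.16 (quasi-likelihood, filterByExpr, TMM, Benjamini-Hochberg adjustment) in R 4.3.3. SE is the absolute log2 change divided by the square root of F. The differences between C3 and C2 were fitted with the pool as a block in pools of at least 10 cells of each. On simulated counts of the size of CSA 50 mg/kg against saline, the test recovered 79.5% of 200 genes changed by 1 on the log2 scale and called 9 of the unchanged among 7977 genes. These changed genes were few and rose as often as they fell, whereas 58.9% of genes were called in the data. The simulation therefore cannot tell how many false calls the data hold. Total UMIs of C3 were 3028405, 3085250 and 6140941 over the 3 groups, the biological coefficient of variation was 5.93%, and median mitochondrial shares were 1.40 to 1.64% by pool. Transcript length was the median over protein-coding transcripts of GENCODE vM21. Promoter windows and their sequences are RefSeq's, and motifs were searched on both strands. Clonotypes were compared as amino acid sequences of both chains, with 200 seeded draws of 85 cells for equal numbers. DESeq2 1.42.0, other scaling, filters and cell sets, and leaving out each pool were the alternatives. Genes were named by rule: the study's marker panel, the largest called changes with at least 50 CPM and no overlap of pools (8 each way at 50 mg/kg against saline, 5 otherwise), the 8 largest differences each way between C3 and other cells with the same sign in every pool, the 5 each way that changed most differently from C2, and of each of 24 lists up to 4 called with the largest change and 3 with the highest level. The rankings of changes and differences left out T cell receptor, immunoglobulin and mitochondrial genes, genes named Gm or Rik, and Jchain. Members, lists and rules were chosen with earlier results of these data known. CD4+ cells, module scores and the embedding were not used here.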

Additional observations from a re-analysis of the deposited data

Results flagged for a closer look

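The change in C3 differed from that in C2 for 142 genes at 5 mg/kg and 581 genes at 50 mg/kg by edgeR, out of 9154. At 50 mg/kg the 5 genes with the largest difference upward in C3 were Ifitm1 with 1.06 ± 0.31 (adjusted p = 0.026), an interferon-induced membrane protein, Smim24 with 0.84 ± 0.19 (adjusted p = 0.0023), Tspan32 with 0.73 ± 0.20 (adjusted p = 0.018), a tetraspanin of blood cells, Ggt1 with 0.72 ± 0.15 (adjusted p = 0.0011), gamma-glutamyltransferase, and Hras with 0.70 ± 0.16 (adjusted p = 0.0032), by edgeR. Ifitm1 fell in both clusters, in C3 to 76.7, 33.6 and 79.8 CPM and in C2 from a mean of 269 to 31.1 CPM. Its call and those of Smim24, Tspan32 and Hras were lost with DESeq2, and Ifitm1 was at -1.31 when all other CD8+ cells stood in place of C2. The 5 largest downward were histone genes, Hist1h2ak (-3.36), Hist1h3f (-2.62), Hist1h2ab (-2.61), Hist2h2bb (-2.36) and Hist1h1b (-2.28), a list whose level in C3 was close to that in C7 in every group.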

How the results depend on the processing

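No paired analysis was possible because the pool numbers name hashtags within 1 capture per group and tie no pool of one group to a pool of another; the comparison of C3 with C2 within pools already has the pool as a block. Over the alternatives, the counts of changed genes stayed within 1.5 times of those reported for 5 and 50 mg/kg against saline, with 1944 and 3713 by DESeq2 and 2316 to 2940 and 4347 to 4883 when each pool was left out. Between the doses DESeq2 called 1040 genes (537 higher, 503 lower), and leaving out pools gave 1059 (without the third 5 mg/kg pool) to 1681. For C3 against C2 at 5 mg/kg DESeq2 called 75 (53 and 22), and leaving out pools gave 60 to 146, of which the counts without the saline pools 1 and 3 were 88 and 60 and those without the 5 mg/kg pools 1, 2 and 3 were 71, 83 and 93. At 50 mg/kg DESeq2 called 247 (135 and 112), and leaving out pools gave 399 to 590. Why DESeq2 called fewer was not tested. On plain library sizes the log2 change turned for Pclaf (-0.18), Hmgb2 (-0.0824), Knstrn (-0.0883), Cd27 (-0.14) and Gzma (-0.43) at 50 mg/kg, for Gzmb (-0.26 and -0.33) and Cdc20 (-0.33 and -0.37) at 5 and 50 mg/kg and for Cd27 at 5 mg/kg (-0.11), and the list median turned for cytotoxic (-0.20) and stem-like (-0.13) genes at 50 mg/kg and for glycolysis at 5 (-0.14) and 50 mg/kg (-0.25). All other CD8+ cells, whose make-up by cluster changed with dose, gave other values in place of C2. Ifitm1 was then at -1.31, and the list medians were 0.27 for G2 and M phase, -0.14 for oxidative phosphorylation and -0.23 for ribosomal proteins. Jchain at 5 mg/kg was at -2.95 without the second pool of that group and at up to 5.76 otherwise. The difference of C3's share of CD8+ cells between 50 mg/kg and saline, 5.56 percentage points, was 3.25 without the third 50 mg/kg pool and up to 7.30, and that of its share of cycling cells, 17.0 points, was 15.5 to 17.9. The difference of the Simpson index was -0.00359, and -0.00173 without the first saline pool, that of cells in clonotypes of 2 or more ranged from -11.5 to -8.38 points and that of the overlap from -23.1 to -20.4 points, with p of at most 0.00357 (exact permutation tests). Because the groups did not overlap in these measures, leaving out a pool could not change their order. This p is the smallest that the remaining pools can give, so it was fixed in advance and adds no support. Restricting to cells whose own hashtag was strongest and alone, or leaving out barcodes found in another capture, was chosen after seeing the data; the list medians computed, 27 and 22, kept their direction. Depth limits genes of under about 5 CPM in saline, which rest on a few UMIs per pool.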

Other observations

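In the other CD8+ cells the Simpson index was lower than in C3 in 8 of 9 pools, the second saline pool being the exception (0.00384 against 0.00279 in C3), with means of 0.00314, 0.000632 and 0.000402 over the 3 groups in order of dose, and in C2 the means were 0.00449, 0.00183 and 0.000691. C4 was above C3 in each saline pool, with a mean of 0.0114 against 0.00414. At 5 mg/kg the mean of C4 was 0.00218, from 12, 18 and 18 cells with a clonotype, and at 50 mg/kg its cells were too few. Without thinning, 20.5, 22.3 and 19.1% of C3 cells were in clonotypes of 2 or more cells in saline, 7.06, 13.5 and 10.6% at 5 mg/kg, and 10.0, 8.70 and 14.2% at 50 mg/kg, so that the 2 CSA groups overlapped.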
